A study of Homo sapiens with 4 samples.

Results

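The 10 genes described here encode matrix metalloproteinases (MMPs) and their tissue inhibitors (TIMPs). They are MMP1, MMP2, MMP3, MMP9, MMP10, MMP13, MMP14, TIMP1, TIMP2 and TIMP3, chosen by name, and all 10 were found by Ensembl identifier among the 58735 genes of the count table. RNA sequencing was done on MDA-MB-231 and SUM159 cells, a pair of established human triple-negative breast cancer (TNBC) lines that grow attached to the dish. Cells of each line received either mebendazole (MBZ) at 1 μM or the solvent DMSO alone, and RNA was taken after 72 h. MBZ is an anthelmintic benzimidazole that binds tubulin and blocks the assembly of microtubules. Each of the 4 conditions was 1 library from 1 line, so the spread between cultures is unknown for every gene, and the comparison within a line is between single libraries.

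MMPs are zinc proteases that cut collagens, other matrix proteins and many cell surface and secreted proteins. Most are secreted as inactive proenzymes and gain activity when the propeptide is removed, whereas the membrane-type MMPs stay on the cell surface. TIMPs bind the active site of MMPs one to one and block it, and in breast tumors the invasion of tumor cells through the basement membrane has long been linked to the balance of both. RNA levels say nothing of how much proenzyme is activated.

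The libraries held 24897586 counts (MDA-MB-231, DMSO), 17143139 counts (MDA-MB-231, MBZ), 18708179 counts (SUM159, DMSO) and 18904501 counts (SUM159, MBZ). Of the receptors that define TNBC by their low level, PGR had 0 counts in all 4 libraries and ESR1 had 1, 0, 2 and 18 counts in the same order, while ERBB2 had 1216 to 1996. Of 5 leukocyte markers, MS4A1 was at 0 in all 4 libraries and CD3E in 3 of them, while CD14 and PTPRC had counts in all 4, and ITGAM in 3. Their summed level was 2.62 to 44.2 CPM (counts scaled to one library size), and that of 3 endothelial markers 16.1 to 41.3 CPM. More genes had at least 1 count with MBZ than with DMSO, 24416 against 22278 in the MDA-MB-231 line and 27239 against 23015 in the SUM159 line. In RNA of whole cultures, fewer cells with a transcript and less transcript per cell cannot be told apart.

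In SUM159 cells the transcripts of the collagenases MMP1 and MMP13 and of the stromelysin MMP3 were 13.9-fold to 30.9-fold higher after MBZ, whereas the gelatinase MMP2 was 5.76-fold lower. In MDA-MB-231 cells MMP1 was 3.28-fold higher, from far fewer counts. TIMP2 and TIMP3 were lower after MBZ in both lines. TIMP1 was lower in the MDA-MB-231 line and higher in the SUM159 line. Genes were compared within a line when the mean of both libraries was at least 10 counts, and called higher or lower at a fold change of at least 1.5. Intervals on fold changes are 95% Clopper-Pearson intervals for counting error only, given on the log2 scale.

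Of the 6 members compared in the MDA-MB-231 line, 2 were called higher and 3 lower. Among all 15142 genes compared in this line, 18.2% were higher and 15.7% lower. Of the 9 members compared in the SUM159 line, 4 were called higher and 4 lower, beside 21.4% and 21.6% of 15674 genes. MMP13 reached the needed mean in both lines through its MBZ library alone, so its higher call is partly set by that filter. These shares depend on scaling. When libraries were scaled to total counts, 29% of all genes were higher and 7.54% lower in the MDA-MB-231 line, and 32.7% and 12.7% in the SUM159 line. The members then gave 2 higher and 2 lower calls in the MDA-MB-231 line and 4 of each in the SUM159 line. The median log2 fold change of the compared members was -0.44 in the MDA-MB-231 line and -0.48 in the SUM159 line, against -0.018 and -0.034 over all genes compared. Members lay far out on both sides, so the median describes few of them.

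**Figure D1:**
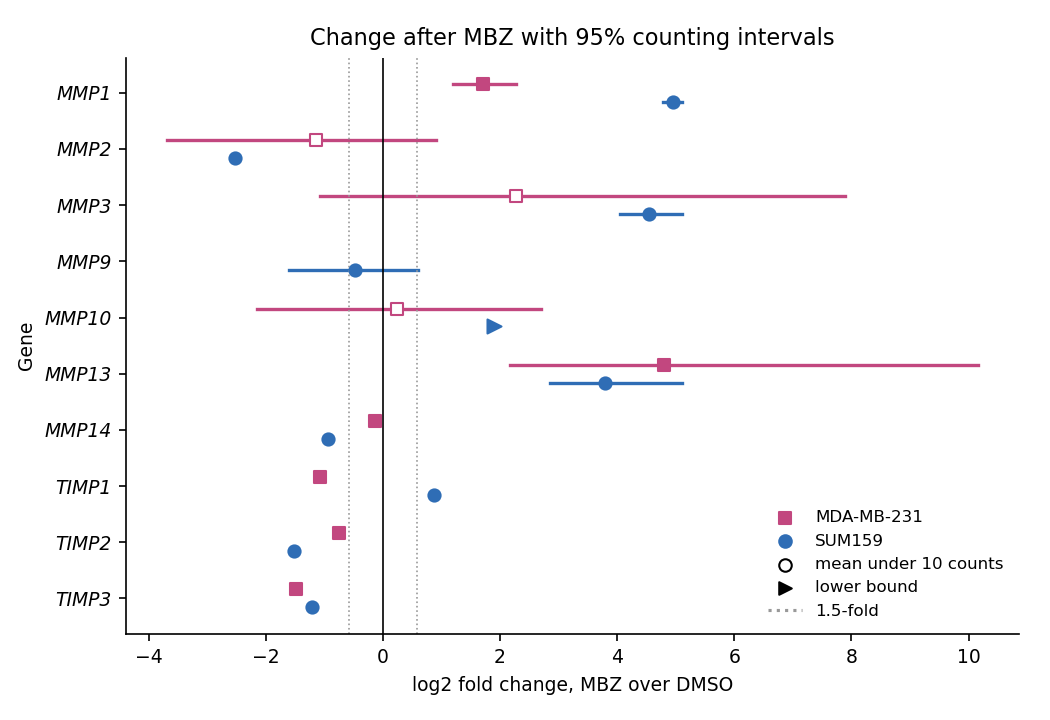
Log2 fold change of MBZ over DMSO (horizontal axis) for each of the 10 genes (vertical axis) in the MDA-MB-231 line (squares) and SUM159 cells (circles), with 95% counting intervals as bars; open symbols mark genes with a mean under 10 counts, the triangle is a lower bound and dotted lines mark 1.5-fold. MMP1, MMP3 and MMP13 lie far to the right in the SUM159 line, MMP2 lies at -2.53, and the symbols of TIMP1 lie on opposite sides of 0.

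The interstitial collagenases cut the triple helix of fibrillar collagen. MMP1 (ENSG00000196611, collagenase 1, chr11:102789401-102798160, minus strand, 10 exons, GRCh38) had 42 counts (DMSO) and 115 counts (MBZ) in the MDA-MB-231 line, and 312 and 12005 counts in the SUM159 line. All 3 other libraries were far below the SUM159 library treated with MBZ. The log2 fold change was 1.71 in the MDA-MB-231 line (interval 1.20 to 2.27), rank 478 from the highest of the genes compared. In SUM159 cells it was 4.95 (4.79 to 5.12), a 30.9-fold higher level and rank 59 from the highest. Exons of MMP1 share 223 bases with WTAPP1, a pseudogene on the opposite strand that had 0, 5, 6 and 19 counts in the 4 libraries.

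MMP13 (ENSG00000137745, collagenase 3, chr11:102942995-102955732, minus strand) prefers type II collagen and was scarce in both lines. It had 1 count (DMSO) and 23 counts (MBZ) in the MDA-MB-231 line, and 8 and 146 counts in the SUM159 line. The ratio in the MDA-MB-231 line was 4.8 on the log2 scale, with an interval of 2.17 to 10.2, so its size was hardly fixed at this depth. The gene entered the comparison there through the MBZ library alone. In SUM159 cells the log2 fold change was 3.80 (2.86 to 5.11), 13.9-fold higher and rank 120 from the highest.

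The gelatinases digest denatured collagen and the type IV collagen of basement membranes. MMP2 (ENSG00000087245, gelatinase A, chr16:55389700-55506691, plus strand, 13 exons) had 8 and 3 counts in the MDA-MB-231 line and 50494 and 10911 counts in the SUM159 line, with DMSO and MBZ in turn. The gene was thus nearly silent in the MDA-MB-231 line and among the abundant transcripts of SUM159 cells. Its log2 fold change in the SUM159 line was -2.53 (-2.56 to -2.5), a 5.76-fold lower level (5.64 to 5.88) and rank 194 from the lowest. In MDA-MB-231 cells the ratio was -1.14 on the log2 scale (-3.69 to 0.92), and no difference was detectable at this depth. MMP2 shares 174 exonic bases with ENSG00000279030 on the same strand, which had 0 to 3 counts in each library.

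Of 4 markers of fibroblasts, cells in which MMP2 is usually abundant, the 2 receptor genes PDGFRA and PDGFRB were lower with MBZ in the SUM159 line, as MMP2 was, and the other 2 were not. The summed level of the 4 markers PDGFRA, PDGFRB, DCN and LUM was 217 CPM with DMSO and 53.5 CPM with MBZ in the SUM159 line, and 6.11 and 4.21 CPM in the MDA-MB-231 line. PDGFRA had 1026 and 306 counts and PDGFRB 2235 and 281 in the SUM159 libraries, log2 fold changes of -2.06 and -3.31. DCN, which encodes decorin, had 335 and 508 counts there (0.28), and LUM, which encodes lumican, had 0 and 8. The leukocyte markers CD14 and PTPRC were also lower with MBZ in this line, at 28.8 and 5.33 CPM for CD14 and 13.0 and 2.91 CPM for PTPRC, and the sum of the 5 leukocyte markers was 44.2 and 11.5 CPM. ITGAM had 39 and 66 counts there. In the MDA-MB-231 line the leukocyte sum was 2.62 and 4.21 CPM. The part of these markers, or of cells that carry them, in the MMP2 result was not tested.

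MMP9 (ENSG00000100985, gelatinase B, chr20:46008908-46016561, plus strand) had 0 and 2 counts in the MDA-MB-231 line and 17 and 15 in the SUM159 line. Its log2 fold change in the SUM159 line was -0.48, with an interval of -1.60 to 0.59 that includes no difference. The 0 counts in the MDA-MB-231 DMSO library allow up to 3 counts, and no fold was computed there. MMP9 shares 430 exonic bases with SLC12A5-AS1 on the opposite strand, which had 2 to 4 counts in each library. The strand setting of the counting is not given in the sources used here. Without strand, reads on these shared bases cannot be assigned to one of the genes, while reads on the rest of the 2336 exonic bases of MMP9 can.

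The stromelysins cut proteoglycans, laminin and fibronectin and also activate other proMMPs. MMP3 (ENSG00000149968, stromelysin 1, chr11:102835801-102843609, minus strand) had 1 and 4 counts in the MDA-MB-231 line, and 33 and 966 in the SUM159 line. Its log2 fold change in the SUM159 line was 4.54 (4.06 to 5.10), 23.2-fold higher and rank 67 from the highest. The ratio in the MDA-MB-231 line, 2.27 on the log2 scale (-1.06 to 7.89), rests on so few counts that no difference was detectable. MMP3 shares 32 exonic bases with WTAPP1 on the opposite strand.

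MMP10 (ENSG00000166670, stromelysin 2, chr11:102770502-102780628, minus strand) was barely transcribed. It had 4 and 4 counts in the MDA-MB-231 line and 0 and 14 in the SUM159 line, under the mean needed for a comparison in both lines. Set against the 3 counts that an observed 0 allows, its 14 counts amounted to a 3.75-fold higher level after MBZ in the SUM159 line. This bound leaves out the counting error of the 14 counts, so the true difference can be smaller. In MDA-MB-231 cells the log2 fold change was 0.24 (-2.15 to 2.70).

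The bases upstream of MMP10 are shown because the gene lies beside MMP1 and MMP3 in a cluster of MMP genes on chromosome 11. Capitals mark matches to TGANTCA, the binding motif of AP-1 (a match reads alike on both strands), and to TATAAA, the TATA box. The sequence is RefSeq GRCh38.p14, chr11:102780629-102780778, minus strand, 150 bases ending just before the annotated gene.
MMP10 upstream: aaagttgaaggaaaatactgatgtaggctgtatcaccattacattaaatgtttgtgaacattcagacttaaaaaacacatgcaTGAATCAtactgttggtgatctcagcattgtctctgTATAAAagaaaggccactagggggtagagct
The AP-1 motif began 67 bases before the start and the TATA box 31 bases before it. Of 35116 promoters in the table, 6.57% held TGANTCA and 10.7% held TATAAA within 250 bases upstream, on either strand. Among the 15 MMP and TIMP promoters in the table, 3 held the first and 6 the second. A match is a description of the letters and not evidence of a bound site.

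MMP14 (ENSG00000157227, MT1-MMP, chr14:22836560-22849041, plus strand) is anchored in the plasma membrane, cuts collagen at the cell surface and activates proMMP2 together with TIMP2. It had 18558 and 13994 counts in the MDA-MB-231 line and 12022 and 7798 in the SUM159 line. Abundance was of one order in all 4 libraries, unlike that of the secreted MMPs. The log2 fold change was -0.94 in the SUM159 line (-0.98 to -0.90), a 1.92-fold lower level. In MDA-MB-231 cells it was -0.13 (-0.17 to -0.10) and became 0.13 when libraries were scaled to total counts, so its direction there depends on the scaling.

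The TIMPs are small secreted inhibitors. TIMP1 (ENSG00000102265, chrX:47582408-47586789, plus strand) inhibits most soluble MMPs but is a weak inhibitor of MMP14. It had 8426 and 3318 counts in the MDA-MB-231 line and 14304 and 32804 in the SUM159 line. The log2 fold change was -1.07 (-1.13 to -1.01) in the MDA-MB-231 line, 2.10-fold lower, and 0.88 (0.85 to 0.91) in the SUM159 line, 1.84-fold higher. It was the only member called in opposite directions in the 2 lines. The gene lies within SYN1 on the opposite strand, which had 3 to 44 counts and shares no exonic base with it.

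TIMP2 (ENSG00000035862, chr17:78852977-78925387, minus strand) inhibits MMP14 and also forms the complex through which MMP14 activates proMMP2. It had 16622 and 8155 counts in the MDA-MB-231 line and 20551 and 8962 in the SUM159 line. Both MBZ libraries were below both DMSO libraries. The log2 fold change was -0.75 (-0.79 to -0.72) in the MDA-MB-231 line and -1.51 (-1.55 to -1.48) in the SUM159 line, 1.69-fold and 2.86-fold lower. With total counts the value in the MDA-MB-231 line was -0.49 and no longer reached 1.5-fold. TIMP2 shares 224 exonic bases with CEP295NL on the same strand, which had 0 to 13 counts, and 367 with ENSG00000267601 on the opposite strand, which had 0 counts in all 4 libraries.

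TIMP3 (ENSG00000100234, chr22:32801705-32863041, plus strand) binds to the matrix and also inhibits several ADAM and ADAMTS proteases. It had 48117 and 14299 counts in the MDA-MB-231 line and 34258 and 18401 in the SUM159 line, with both MBZ libraries below both DMSO libraries. The log2 fold change was -1.48 (-1.51 to -1.45) in the MDA-MB-231 line, 2.79-fold lower and rank 229 from the lowest. In SUM159 cells it was -1.21 (-1.24 to -1.19), 2.32-fold lower.

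The upstream sequences of TIMP1 and TIMP3 are shown because these 2 inhibitors differed in direction in the SUM159 line. Both are RefSeq GRCh38.p14, plus strand, and end just before the annotated gene. TIMP1 is chrX:47582286-47582407, 122 bases, and TIMP3 is chr22:32801555-32801704, 150 bases.
TIMP1 upstream: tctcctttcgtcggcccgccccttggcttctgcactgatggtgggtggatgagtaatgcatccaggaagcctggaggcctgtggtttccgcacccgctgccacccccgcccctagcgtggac
TIMP3 upstream: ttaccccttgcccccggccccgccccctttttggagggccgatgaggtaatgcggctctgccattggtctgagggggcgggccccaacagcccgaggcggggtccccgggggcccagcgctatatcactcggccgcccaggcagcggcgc
Neither window of 250 bases held TGANTCA or TATAAA, so no capitals are set. Only exact matches were searched, and near matches such as tgagtaa in the TIMP1 bases are not marked. The absence of a match is therefore not evidence that a site is absent. G and C made up 64.8% of the bases of TIMP1 and 72.7% of those of TIMP3, against 36.7% for MMP10.

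**Figure D2:**
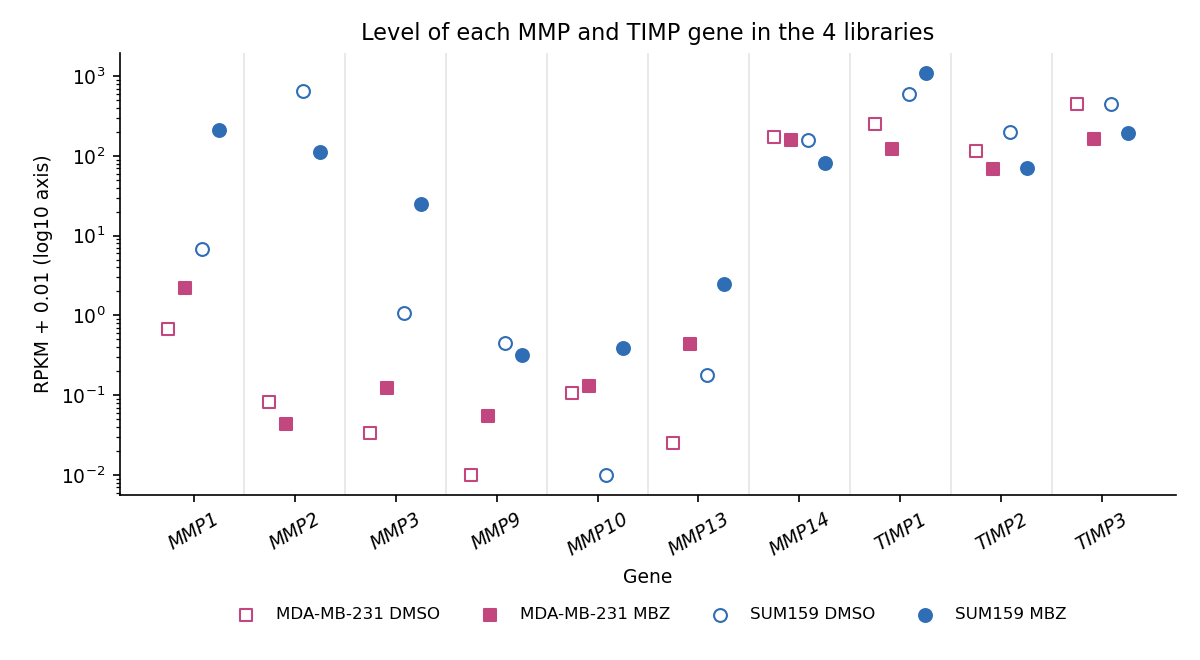
RPKM plus 0.01 on a log10 axis (vertical) for each of the 10 genes (horizontal) in the 4 libraries, with squares for MDA-MB-231 cells, circles for SUM159 cells, open symbols for DMSO and filled symbols for MBZ; each symbol is 1 library. MMP14 and the TIMPs lie between 69.1 and 1099.9 RPKM in every library, whereas MMP2 runs from 0.0335 RPKM in the MDA-MB-231 line with MBZ to 648 RPKM in the SUM159 line with DMSO.

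Levels of different genes were compared as RPKM, which divides the reads of a gene by the length of its exons and by the size of the library. With DMSO, MDA-MB-231 cells held 450.3 RPKM of TIMP3, 251 of TIMP1, 173 of MMP14 and 115 of TIMP2, followed by MMP1 at 0.660 RPKM. The other 5 members were each under 0.1 RPKM. SUM159 cells with DMSO held 648 RPKM of MMP2, 597 of TIMP1, 449.9 of TIMP3, 199.8 of TIMP2 and 157 of MMP14. MMP1 followed at 6.88 RPKM and MMP3 at 1.07 RPKM. The DMSO levels of TIMP3 and of MMP14 thus lay close together in the 2 lines, and those of MMP2 were furthest apart.

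After MBZ the order in the MDA-MB-231 line was TIMP3 at 164 RPKM, MMP14 at 159, TIMP1 at 121 and TIMP2 at 69.1, with MMP1 at 2.21 RPKM and MMP13 at 0.427. MMP14 stood above TIMP1 there and below it with DMSO. In SUM159 cells with MBZ, TIMP1 led at 1099.9 RPKM, followed by MMP1 at 213, TIMP3 at 194, MMP2 at 112, MMP14 at 81.8 and TIMP2 at 69.98. MMP1 moved from the sixth place of the 10 genes to the second. MMP3 reached 25.3 RPKM and MMP13 2.5 RPKM. With 1 library per condition, no spread can be set against the gaps between neighbors in these orders.

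Summed over the 7 MMP genes, RNA amounted to 174 RPKM with DMSO and 162 RPKM with MBZ in the MDA-MB-231 line. In SUM159 cells the sums were 813 and 435 RPKM. The 3 TIMPs summed to 816 and 353 RPKM in the MDA-MB-231 line and to 1247 and 1364 RPKM in the SUM159 line. The ratio of MMP to TIMP transcripts was therefore 0.213 with DMSO and 0.459 with MBZ in the MDA-MB-231 line, and 0.652 and 0.319 in the SUM159 line. It was higher after MBZ in one line and lower in the other. These sums are of RNA and say nothing of the ratio of the proteins.

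The makeup of the sums differed between the lines. MMP14 made up 99.5% and 98.2% of the MMP sum in the MDA-MB-231 line, with DMSO and MBZ in turn. In SUM159 cells it made up 19.3% and 18.8%. MMP2 made up 79.6% of the MMP sum of SUM159 cells with DMSO and 25.8% with MBZ, while MMP1 made up 0.846% and 48.8%. Without MMP14, the ratio of secreted MMP to TIMP transcripts was 0.00107 and 0.00834 in the MDA-MB-231 line and 0.526 and 0.259 in the SUM159 line. The values of the MDA-MB-231 line rest on few counts, mostly the 42 and 115 of MMP1. TIMP1 made up 47.9% of the TIMP sum in the SUM159 line with DMSO and 80.6% with MBZ, and 30.7% and 34.2% in the MDA-MB-231 line.

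**Figure D3:**
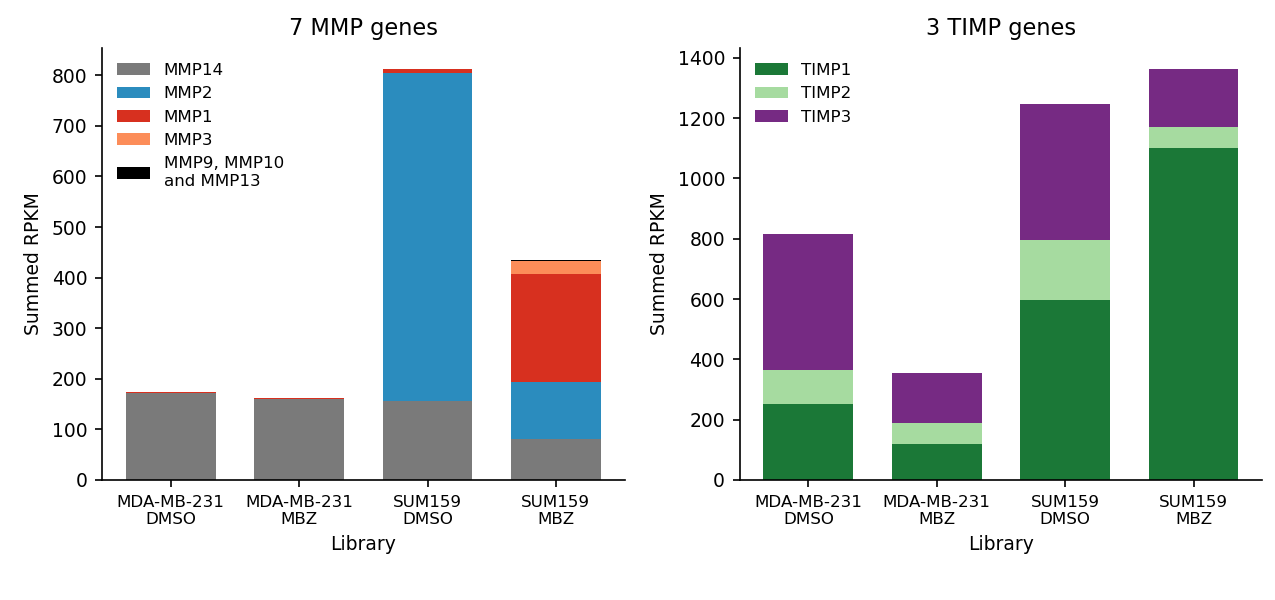
Summed RPKM (vertical axes, from 0) of the 7 MMP genes (left) and the 3 TIMP genes (right) in each of the 4 libraries (horizontal axes), stacked by gene; each bar is 1 library and has no error. In SUM159 cells the MMP bar changes from mostly MMP2 (79.6%) to mostly MMP1 (48.8%) and MMP2 (25.8%), and the TIMP bars of MDA-MB-231 cells stand at 816 and 353 RPKM.

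The test of a change common to both lines used the quasi-likelihood test of edgeR, adjusted by Benjamini-Hochberg over 16100 genes, with cell line and treatment in the model. Here the lines stand in for replicates, so the spread is the difference between their responses and not that between cultures. Of the members, 9 were tested and 0 passed an adjusted p of 0.05. Over all genes 0.00621% (1 gene) passed upward and 0% downward, while 629 and 521 had an unadjusted p under 0.05. DESeq2's Wald test on the same counts called 44 genes upward and 55 downward of 15390 genes, 4 members among them.

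In edgeR's test the log2 change of MMP3 was 4.31 ± 0.66 (SE), with an unadjusted p of 0.00037 and an adjusted p of 0.327. MMP13 was at 4.12 ± 0.77 (adjusted p = 0.422), MMP1 at 3.50 ± 0.81 (adjusted p = 0.458) and MMP2 at -2.21 ± 0.56 (adjusted p = 0.546). With 1 and 8 counts in the DMSO libraries, MMP13 passed the filter on low counts through the MBZ libraries alone, where it is high. Its result is thus partly set by that filter. TIMP3 was at -1.31 ± 0.44 and TIMP2 at -1.10 ± 0.40, with adjusted p of 0.618 and 0.640. These 6 members had an unadjusted p under 0.05 in edgeR's test, as did 629 genes upward and 521 downward of the 16100 tested. MMP14, MMP9 and TIMP1 were at -0.50 ± 0.40, 0.20 ± 1.03 and -0.056 ± 0.55, and MMP10 had too few counts for the test. DESeq2's Wald test gave MMP1 an adjusted p of 0.00158, MMP2 0.0161, MMP3 0.000875 and TIMP3 0.0154. The same test of edgeR called 4 members (MMP1, MMP2, MMP3 and MMP13) when every gene with at least 1 count was kept. How many of the 32295 genes in that fit passed is not given here, so these 4 cannot be set against a share of all genes. Whether any member passed thus depends on the tool and on the filter. With 8 and 3 counts of MMP2 and 1 and 4 counts of MMP3, no difference was detectable in MDA-MB-231, so the calls of these genes rest on the SUM159 libraries and do not show a change in both lines. Over the 4 alternative fits the adjusted p of these 5 genes reached 0.9999 in the model without cell line. The lowest was 7.82e-12 for MMP1, 0.00168 for MMP2, 6.54e-08 for MMP3, 0.000318 for MMP13 and 0.0154 for TIMP3.

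Between the lines, the same edgeR fit called 5 members, all of them higher in the SUM159 line, beside 11.6% of all genes higher in SUM159 and 9.85% higher in MDA-MB-231. MMP2, MMP3 and MMP9 had at most 8 counts in a MDA-MB-231 library and passed the filter on low counts through the SUM159 libraries alone, where they are high, so the count of members and its direction rest partly on that filter. MMP1 and TIMP1 had 42 or more counts in every library. Averaged over treatment, the log2 difference of MDA-MB-231 over SUM159 was -12.65 ± 0.72 (SE) for MMP2 (adjusted p = 0.000323). It was -7.31 ± 0.72 for MMP3 (adjusted p = 0.00123) and -5.11 ± 0.84 for MMP1 (adjusted p = 0.00787). The differences of MMP13, -2.78 ± 0.74 (adjusted p = 0.0387), and TIMP1, -2.27 ± 0.57 (adjusted p = 0.0331), were smaller. MMP13 lost its call with DESeq2's Wald test (adjusted p = 0.0514) and in the model without treatment (adjusted p = 0.250), in a range of 0.00535 to 0.250 over 4 alternatives. MMP9, at -4.07 ± 1.18, missed the threshold (adjusted p = 0.0513) and passed it in 3 alternatives (0.0359 to 0.0475). TIMP2, TIMP3 and MMP14 were at -0.45 ± 0.40, -0.17 ± 0.43 and 0.50 ± 0.40, within the spread of this fit.

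The responses of the lines were set side by side as differences of log2 fold changes, SUM159 minus MDA-MB-231, with intervals for counting error. An interaction between line and treatment leaves no residual degree of freedom, so these differences were not tested. The response of MMP1 was larger by 3.22 (2.69 to 3.76) in the SUM159 line. That of TIMP1 differed by 1.95 (1.89 to 2.02), that of MMP14 by -0.81 (-0.86 to -0.75), that of TIMP2 by -0.76 (-0.81 to -0.71) and that of TIMP3 by 0.27 (0.23 to 0.30). The responses of MMP13 (-0.92, -3.99 to 2.14), MMP3 (2.28, -0.92 to 5.48) and MMP2 (-1.38, -3.30 to 0.53) could not be told apart at the counts of the MDA-MB-231 libraries. Of the 6 members compared in both lines, 2 were called higher in both, 2 lower in both and 1 in opposite directions. The genes higher in both were MMP1 and MMP13, the latter compared through its MBZ libraries alone. Over 13733 genes compared in both lines these shares were 6.06%, 4.69% and 5.97%.

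MMP1, MMP3, MMP10 and MMP13 belong to a cluster of 9 MMP genes on the long arm of chromosome 11 (chr11:102520508-102955732, 435 kb), in the order MMP7, MMP20, MMP27, MMP8, MMP10, MMP1, MMP3, MMP12 and MMP13. In SUM159 cells 7 of these genes had more counts with MBZ than with DMSO, 0 had fewer and 2 were at 0 in both libraries. For MMP7 and MMP27 the difference was a single count. Among all 29148 genes with a count in this line, 66.8% had more counts with MBZ and 30.1% fewer. The counts of the cluster summed to 357 with DMSO and 13172 with MBZ, or 21.2 and 628 CPM, and MMP1 made up 91.1% of the latter. In MDA-MB-231 cells 5 had more counts with MBZ and 0 had fewer, 48 and 152 counts in all (2.11 and 8.09 CPM), beside 42.4% of 26440 genes with more and 53.8% with fewer. Of the 5, MMP7 had 0 and 1 counts, MMP3 1 and 4 and MMP8 0 and 5. Only MMP1 and MMP13 had a mean of at least 10 counts there, MMP13 through its MBZ library alone. MMP12, macrophage elastase, had 4 and 39 counts in the SUM159 line, a log2 fold change of 2.84 (1.5 to 4.91), and 0 counts in the MDA-MB-231 line.

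The genes next to the cluster did not all share its direction. BIRC3, an inhibitor of apoptosis gene that is the third neighbor before MMP7, had 359 and 1582 counts in the MDA-MB-231 line (log2 fold change 2.41) and 409 and 1616 in the SUM159 line (1.66). BIRC2 and TMEM123, which lie between BIRC3 and MMP7, were at 0.36 and -0.10 in the MDA-MB-231 line and at 0.11 and -0.52 in the SUM159 line. Beyond MMP13, DCUN1D5 was at 0.53 and 0.77 and DYNC2H1 at 0.016 and -0.96. PDGFD had at most 5 counts in a library.

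**Figure D4:**
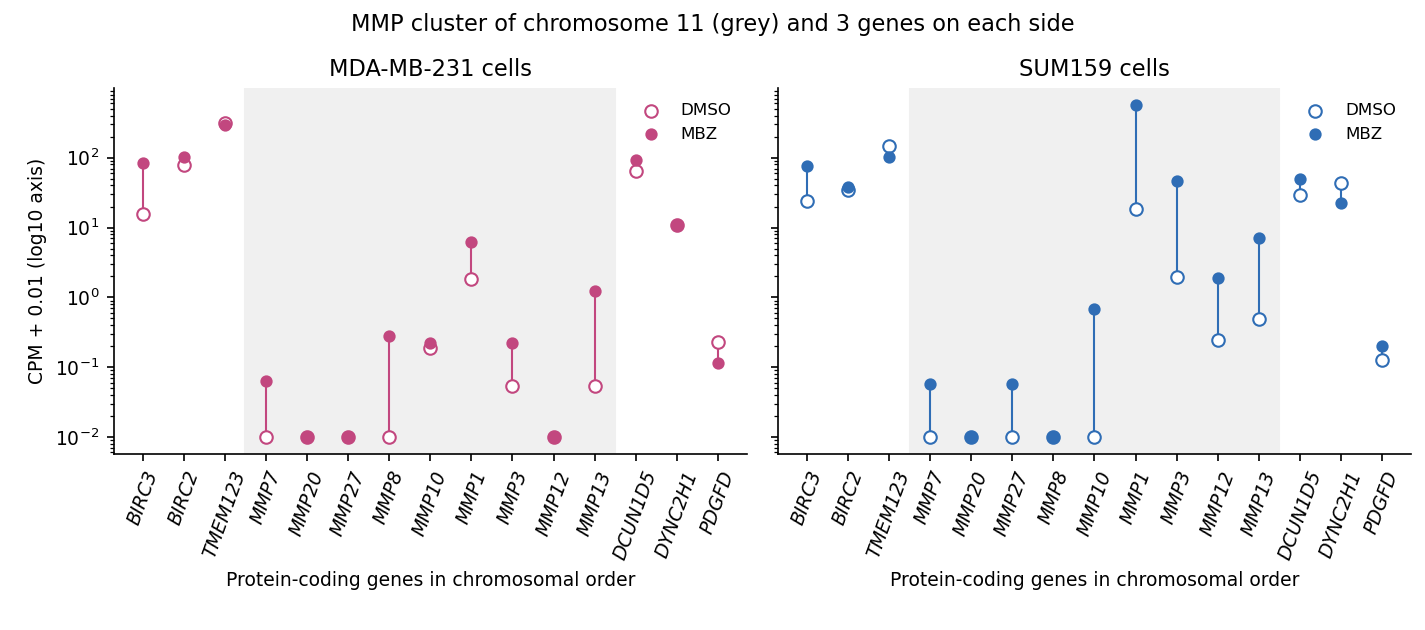
CPM plus 0.01 on a log10 axis (vertical) of the 9 MMP genes of the chromosome 11 cluster (grey) and the 3 protein-coding genes on each side, in chromosomal order (horizontal, not to scale), with DMSO as open and MBZ as filled circles, 1 library each, in the MDA-MB-231 line (left) and SUM159 cells (right). In SUM159 cells 7 of the 9 filled circles lie above the open ones and 2 genes are at 0, while BIRC3 outside the cluster is higher with MBZ in both panels (log2 fold change 2.41 and 1.66).

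The genes whose levels over the 4 libraries were most like those of MMP2 and TIMP1, the MMP and the TIMP of highest mean RPKM, were found by the Euclidean distance of centered log2 CPM among 11152 genes. For MMP2 the nearest were PDPN, which encodes podoplanin (distance 0.543), TMPRSS15 (1.39) and IRX2-DT (1.63). PDPN had 2 and 0 counts in the MDA-MB-231 line and 14853 and 5401 in the SUM159 line. For TIMP1 the nearest were ITGB3, which encodes integrin beta 3 (0.217), APCDD1L (0.511) and SYNGR3 (0.550). ITGB3 had 318 and 136 counts in the MDA-MB-231 line and 619 and 1172 in the SUM159 line, lower with MBZ in the first line and higher in the second as for TIMP1. Likeness over 4 libraries is a description of 4 values per gene.

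The other 16 MMP genes were mostly low. In MDA-MB-231 cells 6 were compared, 1 was higher and 1 lower. In SUM159 cells 9 were compared, 3 were higher and 4 lower. Of the 3, MMP12 and MMP25 were compared through the MBZ library alone, which favors a higher call. The shares over all genes compared were 18.2% higher and 15.7% lower in the first line and 21.4% and 21.6% in the second. MMP19, a secreted MMP, had 60 and 194 counts in the MDA-MB-231 line (log2 fold change 1.96) and 157 and 327 in the SUM159 line (0.74), and shares 821 exonic bases with TMEM198B on the opposite strand. MMP11, stromelysin 3, had 117 and 62 counts (-0.64) and 257 and 48 counts (-2.72). MMP15, a membrane-type MMP like MMP14, had 174 and 175 counts (0.28) and 625 and 268 counts (-1.54). MMP17, which is anchored by a lipid, had 231 and 145 counts (-0.40) and 352 and 247 counts (-0.83), and MMP16 had 181 and 180 counts (0.26) and 76 and 80 counts (-0.24).

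Among 15 other inhibitors, activators and binding partners of MMPs, 11 were compared in the MDA-MB-231 line, of which 2 were higher and 2 lower (median -0.014 on the log2 scale). In SUM159 cells 13 were compared, of which 3 were higher and 7 lower (median -0.75). All genes compared had medians of -0.018 and -0.034, with 18.2% higher and 15.7% lower in the first line and 21.4% and 21.6% in the second. TFPI2, a serine protease inhibitor of the matrix, had 556 and 1252 counts in the MDA-MB-231 line (1.44) and 1825 and 22290 in the SUM159 line (3.29). LCN2, whose protein binds MMP9, had 7 and 26 counts (2.08) and 15 and 99 counts (2.37), and was compared in the first line through the MBZ library alone. RECK, a membrane-anchored inhibitor of MMPs, had 281 and 137 counts (-0.76) and 80 and 30 counts (-1.71). A2M, the plasma inhibitor alpha-2-macroglobulin, had 0 counts in the MDA-MB-231 line and 18 and 2 in the SUM159 line (ratio -3.49, -6.64 to -1.42), where the DMSO library alone brought it into the comparison.

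Of 28 ADAM and ADAMTS proteases, several of which TIMP3 inhibits, 6 were higher and 3 lower of 19 compared in the MDA-MB-231 line, and 5 were higher and 8 lower of 20 in the SUM159 line. The largest differences were ADAMTS6 (3 and 112 counts, ratio 5.49, 3.91 to 7.79) and ADAM19 (2943 and 745 counts, -1.71) in the MDA-MB-231 line. In SUM159 cells they were ADAMTS4 (7 and 53 counts, 2.53) and ADAMTS2 (3168 and 849 counts, -2.22). ADAMTS6 and ADAMTS4 were each compared through the MBZ library alone, which favors a higher call. Of 14 AP-1 and ETS transcription factors, families whose motifs are known from MMP promoters, 4 were higher and 4 lower in the MDA-MB-231 line and 7 higher and 1 lower in the SUM159 line. For this list and the proteases alike, the shares over all genes compared were 18.2% higher and 15.7% lower in the MDA-MB-231 pair of libraries and 21.4% and 21.6% in the SUM159 pair. FOSL1 had 585 and 4434 counts in the SUM159 line (2.60) and 9618 and 6646 in the MDA-MB-231 line (-0.26, and 0.0051 with total counts). FOSB had 31 and 388 counts in the MDA-MB-231 line (3.89) and 27 and 197 in the SUM159 line (2.53). ETV4 had 4170 and 1695 counts in the MDA-MB-231 line (-1.03) and 580 and 1196 in the SUM159 line (0.73), and ETS1 had 3828 and 3939 (0.31) and 4259 and 2989 (-0.83). Whether these factors had a part in the MMP levels was not tested.

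**Figure D5:**
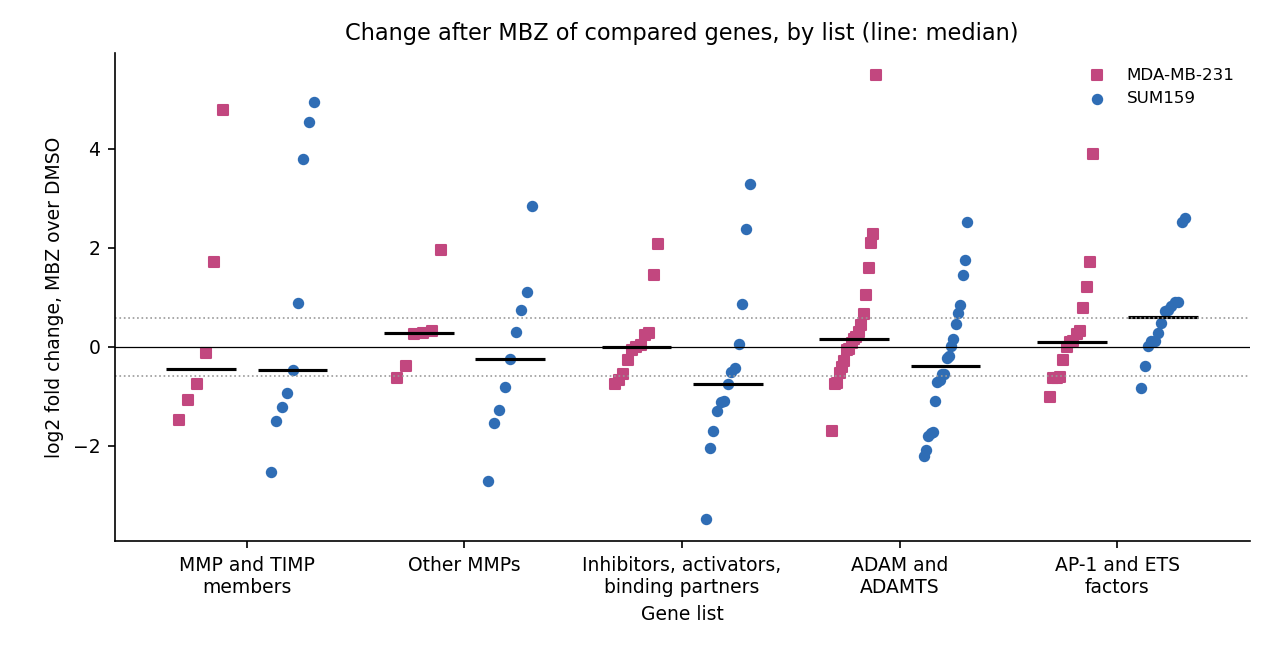
Log2 fold change of MBZ over DMSO (vertical axis) of every compared gene in the 5 gene lists (horizontal axis), with squares for MDA-MB-231 cells and circles for SUM159 cells; black lines are list medians and dotted lines mark 1.5-fold. The members run from -1.48 to 4.8 in the MDA-MB-231 line and from -2.53 to 4.95 in the SUM159 line, around medians of -0.44 and -0.48.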

How the data were processed

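The 4 libraries, 1 for each line and treatment, were grouped by the cell line and dose in the labels. The authors aligned paired reads to the GRCh38 genome using STAR 2.5 and assigned them to genes using HTSeq 0.6.1 (union mode). The deposited values are raw counts, which they did not normalize. The annotation release and the strand setting are not given in the sources used here, so exonic bases that a member shares with another gene are given beside its values. Symbols, exon lengths and coordinates came from GENCODE 44 on GRCh38, which held 58207 of the 58735 identifiers.

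Log2 fold changes were computed in edgeR 4.0.16 (R 4.3.3) from CPM with TMM normalization over both libraries of a line and a prior count of 0.5. Where a library had 1 to 3 counts, the ratio of counts was used. RPKM used TMM over 4 libraries and the union of exons. The shared test was edgeR's quasi-likelihood test after filterByExpr, with an adjusted p under 0.05, and DESeq2 1.42.0 was the other tool. Functions were tested on simulated data. Counting intervals leave out PCR duplication. Upstream sequences came from the RefSeq table, which held 4 of the 10 members (MMP10, MMP14, TIMP1 and TIMP3).

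All 10 members are named. From each other list, the largest rise and fall in each line are named, and of the other MMPs each gene with a mean of at least 100 counts, together with neighbors in the cluster and the 3 genes most like MMP2 and TIMP1. PDGFRA, PDGFRB, DCN and LUM are the fibroblast markers. Members and lists were chosen with earlier results of these data known.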

Additional observations from a re-analysis of the deposited data

Results flagged for a closer look

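The responses of TIMP1 lay in opposite directions in the 2 lines, with a log2 fold change of -1.07 in the MDA-MB-231 line and 0.88 in the SUM159 line. Each value is 1 library against 1, and the difference between the lines was not tested, since an interaction leaves no residual degree of freedom. Under all 4 other scalings and prior counts tried, the value stayed below 0 in the MDA-MB-231 line and above 0 in the SUM159 line.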

How the results depend on the processing

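The number of members called higher in the MDA-MB-231 line was 2, beside 18.2% of all genes compared. It was 4 when every gene with at least 1 count was compared and 0 with a mean of at least 100 counts. The added genes were MMP3, with 1 and 4 counts, and MMP9, with 0 and 2. The shares of all genes under these 2 filters are not given here, so the change in number describes the filter and not the members. The number with a shared change was 0 in edgeR's quasi-likelihood test. It was 4 with DESeq2's Wald test (MMP1, MMP2, MMP3 and TIMP3), which called 44 genes upward and 55 downward of 15390. It was 4 in edgeR's test with every gene of at least 1 count (MMP1, MMP2, MMP3 and MMP13). How many of the 32295 genes in that fit passed is not given here. In the model without cell line the shared log2 change of MMP9 was -0.24 and that of TIMP1 0.57, against 0.20 and -0.056. The cause was not tested. The numbers called lower in the MDA-MB-231 line and higher or lower in the SUM159 line stayed within 1.5 times under their 8 alternatives each, and so did the number differing between lines under its 4. Of the log2 fold changes within a line, 161 recomputed values stayed within the counting interval and 27 left it, mostly with total counts, which raised the median of all genes by 0.27 in the MDA-MB-231 line and 0.30 in the SUM159 line. The 4 ratios of MMP to TIMP RPKM moved little with the length of the longest transcript.

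The shared test compares MBZ with DMSO within each line, and the model without cell line is its unpaired form. Each line and treatment had 1 library, so no replicate was left out. Depth limits MMP2, MMP3, MMP9, MMP10 and MMP13 in the MDA-MB-231 line, each with under 30 counts in a library, and MMP9, MMP10 and MMP13 in the SUM159 line. The intervals cover counting error only, and the spread between cultures is unknown.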
